A study of Mus musculus with 6 samples.

Results

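Expression of 10 genes of epithelial cell adhesion and tight junctions was examined in mouse embryonic stem cells (ESCs) that lack the homeobox gene Hoxd12 and in wild-type ESCs. The genes were taken by name from a list (Cdh1, Epcam, Cldn3, Cldn4, Cldn6, Cldn7, Ocln, Tjp1, Esrp1 and Grhl2), and their identifiers were matched through the GENCODE M21 annotation. All 10 were present among the 55450 genes listed, and all 10 were among the 12891 with enough counts to be tested. Per the labels, the compared cells were Hoxd12-/- ESCs and wild-type ESCs, with 3 libraries each, both of strain C57BL6, given as stage E3.5 embryo and grown in mES+2i medium, where 2i stands for kinase inhibitors that hold ESCs in the naive state. The labels do not name the method of the deletion, the number of clones behind the knockout libraries or the cultures the libraries were made from, so the replicate spread behind each p-value may be purely technical. Hoxd12 itself had 0 counts in all 6 libraries, so the genotype could not be checked by its transcript.

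Epithelial cells are held together by adherens junctions, in which E-cadherin on neighbouring cells pairs and is anchored by catenins to actin, and by tight junctions, in which claudins and occludin seal the space between cells and are anchored by ZO scaffold proteins. ESCs grow as compact colonies with E-cadherin on their surface. When fibroblasts are reprogrammed to pluripotency they pass through a mesenchymal-to-epithelial transition, in which E-cadherin and Epcam appear early and mesenchymal genes are shut off; the series title names reprogramming, and no reprogramming cells were analysed here.

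Library totals lay between 5412577 and 6280934 expected counts, and 3 counts were worth 0.478 to 0.554 CPM, a count scaled to the size of its library; such floors reflect counting error alone. All 10 pluripotency markers examined were tested in these cells, and Pou5f1, which encodes the core pluripotency factor Oct4, had 1311 to 1441 TPM in knockout libraries and 1265 to 1325 TPM in wild-type libraries. TPM is scaled by transcript length as well as library size and is the scale used here to compare levels between genes. Fold changes come from edgeR's quasi-likelihood test on counts and are knockout over wild type; a gene was called at a Benjamini-Hochberg adjusted p below 0.05 over all tested genes.

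Of the 10 genes, 4 rose in the knockout (Cdh1, Epcam, Cldn4 and Cldn7), 2 fell (Cldn3 and Grhl2) and 4 did not pass the test (Cldn6, Ocln, Tjp1 and Esrp1). Over all tested genes 12.1% were called higher and 14.4% lower, 26.5% in all. The median log2 fold change of the 10 genes was 0.22, beside 0.02 over all tested genes. CPM values of knockout and wild type did not overlap for 7 of the 10, against 39.7% of all tested genes. The calls of Cdh1, Epcam and Cldn4 held in all 14 alternative settings run, whereas those of Cldn7, Cldn3 and Grhl2 were lost in 9, 9 and 6 of them. DESeq2 called 3 of the 10, all higher, where it called 5.44% of all genes higher and 9.98% lower (701 and 1287 genes, beside 1559 and 1861 with edgeR), and limma on log2(TPM + 1) called 3, all higher, where it called 8.59% of all genes higher and 5.81% lower (1107 and 749 genes). With a transcript length offset edgeR called 3, all higher, where it called 8.07% of all genes higher and 11.1% lower. In bulk RNA, fewer cells that express a gene and less of its RNA per cell cannot be told apart.

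**Figure D1:**
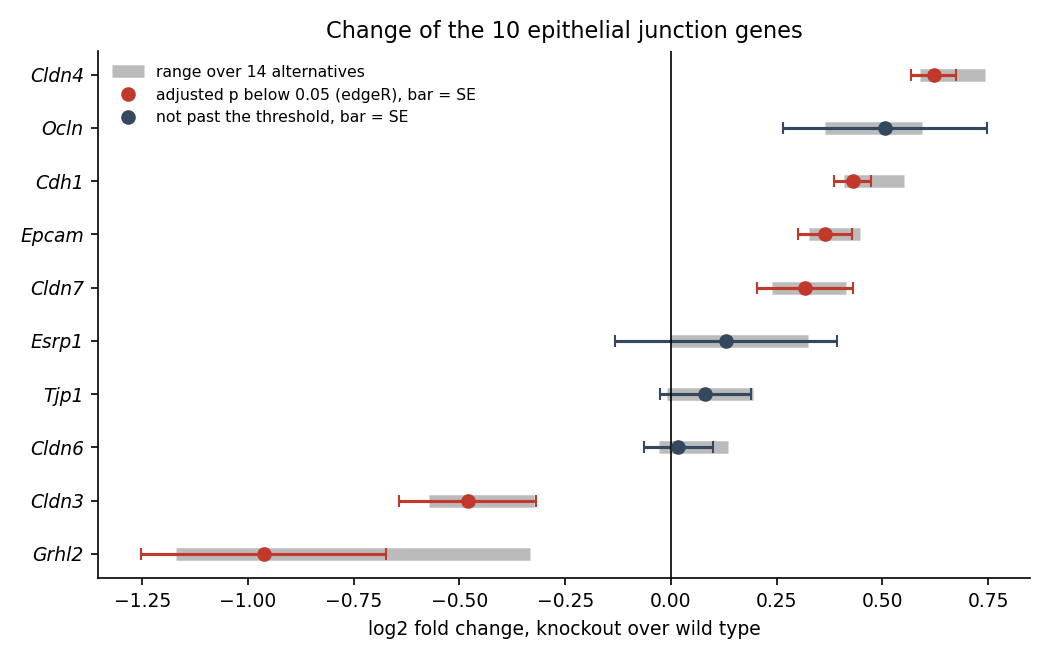
Log2 fold change, knockout over wild type, of the 10 genes by edgeR (points, with SE) and the range of the same value over 14 alternative settings (grey bars). Cldn4, Cdh1 and Epcam lie above 0 with narrow ranges, and the range of Grhl2 runs from -1.17 to -0.33.

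Levels differed widely among the 10 genes. Averaged over the 6 libraries, the order from high to low TPM was Cldn4, Cdh1, Epcam, Cldn6, Cldn7, Cldn3, Tjp1, Ocln, Esrp1 and Grhl2. Neighbours in that order did not overlap within the knockout libraries or within the wild-type libraries, apart from Ocln and Esrp1, which overlapped in wild type, and Esrp1 and Grhl2, which overlapped in both groups. Within wild type alone, Grhl2 averaged 1.53 ± 0.297 TPM, above Ocln at 1.29 ± 0.0751 TPM (SD, n = 3), and their libraries overlapped. The adhesion genes Cdh1 and Epcam stood between 38.9 and 73.1 TPM in every library.

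**Figure D2:**
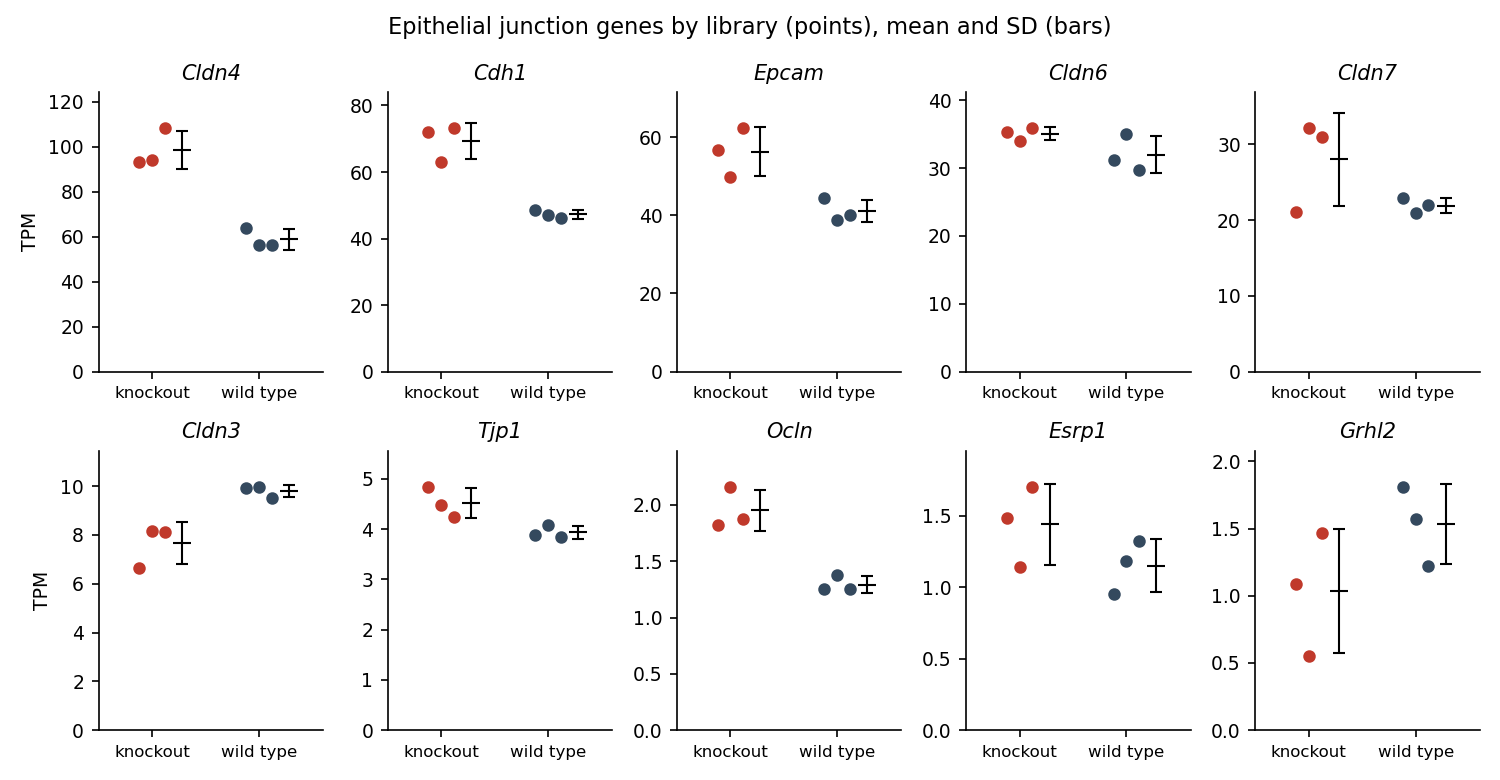
TPM of each gene by library (points; knockout left in red, wild type right in dark grey-blue) with the group mean and SD (bars, n = 3), each panel on its own axis from 0. The groups separate for Cldn4, Cdh1, Epcam, Cldn3, Ocln and Tjp1 on this scale and overlap for Cldn6, Cldn7, Esrp1 and Grhl2. The share of all tested genes that separate in TPM is not given. Their median log2 fold change was 0.10 on log2(TPM + 1), beside 0.02 on counts.

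Cdh1 (ENSMUSG00000000303, chromosome 8, 106603351 to 106670246, plus strand, GRCm38) encodes E-cadherin, the calcium-dependent adhesion receptor of adherens junctions. Its expected counts were 2030, 1626 and 2061 in knockout libraries and 1355, 1447 and 1356 in wild-type libraries. Scaled to library size, these were 325, 307 and 317 CPM in the knockout and 237, 236 and 233 CPM in wild type. Every knockout library was above every wild-type library. On the TPM scale Cdh1 averaged 69.4 ± 5.45 in the knockout and 47.3 ± 1.28 in wild type (SD, n = 3). The rise was 1.35-fold (log2 fold change 0.43, SE 0.04, edgeR adjusted p = 2.48e-09), the 128th smallest p among the tested genes.

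Chromosome 8 as a whole was shifted upward in the knockout, and this touches Cdh1. The median log2 fold change of its 702 other tested genes was 0.17, and that of the 106 within 5 Mb of Cdh1 was 0.15, of which 28 were called higher and 5 lower. Cdh1 lay 0.26 above the median of its chromosome, and 13 of the 106 neighbours rose more. The nearest cadherin gene, Cdh3, which encodes P-cadherin, lies 46.1 kb away and had a log2 fold change of 0.29 (edgeR adjusted p = 0.123). The part of the chromosome shift in the rise of Cdh1 was not tested.

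Epcam (ENSMUSG00000045394, chromosome 17, 87635979 to 87651129, plus strand) encodes an epithelial adhesion molecule that binds claudin-7 at the lateral membrane. It had 608, 482 and 664 counts in knockout libraries and 458, 440 and 434 in wild-type libraries. These were 97.3, 91.1 and 102 CPM in the knockout and 80.0, 71.7 and 74.6 CPM in wild type, with no overlap. The rise was 1.29-fold (log2 fold change 0.36, SE 0.06, edgeR adjusted p = 4.23e-05). The 27 tested genes within 5 Mb had a median of 0.09, of which 5 were called higher and 0 lower.

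Epcam was also read in a measure that the count test does not use. The deposited gene length is the mean length of the gene's transcripts weighted by their estimated abundance, so it moves when the mix of isoforms is estimated differently. For Epcam it was 1769, 1753 and 1759 bases in knockout libraries and 1727, 1717 and 1718 bases in wild-type libraries. The groups did not overlap, with means of 1761 ± 8.10 and 1721 ± 5.83 bases in knockout and wild type (SD, n = 3; exact two-sided permutation p = 0.10, the smallest that 3 against 3 allows). GENCODE M21 lists 5 transcripts of Epcam. The coding transcripts Epcam-201, Epcam-204, Epcam-202 and Epcam-205 are 2040, 1745, 904 and 600 bases long, and the processed transcript Epcam-203 is 581 bases long. Which of them differ between the groups was not measured. Among all tested genes whose length varied between libraries, 16.0% did not overlap between the groups and 10.7% were longer in every knockout library. Of the 7 listed genes with varying length, only Epcam separated the groups, and the other 3 had the same length in every library. A count of 1 in 7 is near the 16.0% share of all tested genes, so it is not read as a trait of these genes.

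Claudins are the membrane proteins that form tight junction strands, and each has its own selectivity for ions. Cldn4 (ENSMUSG00000047501, chromosome 5, 134945119 to 134946934, minus strand) was the most abundant of the 10 genes. It had 1026, 947 and 1195 counts in knockout libraries and 697, 676 and 646 in wild-type libraries. In CPM the knockout libraries stood at 164, 179 and 184 and the wild-type libraries at 122, 110 and 111, far apart relative to the spread within each group. The rise was 1.54-fold (log2 fold change 0.62, SE 0.05, edgeR adjusted p = 8.38e-11), the 75th smallest p of all tested genes. In TPM, Cldn4 averaged 98.4 ± 8.48 in the knockout and 58.8 ± 4.49 in wild type (SD, n = 3).

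Cldn3 (ENSMUSG00000070473, chromosome 5, 134986214 to 134987472, plus strand) lies 39.3 kb from Cldn4 with 0 protein-coding genes between them, and it moved the other way. It had 49, 55 and 60 counts in knockout libraries and 72, 80 and 73 in wild-type libraries. In CPM these were 7.84, 10.4 and 9.24 in the knockout and 12.6, 13.0 and 12.6 in wild type, without overlap. The fall was to 0.717 of the wild-type level (log2 fold change -0.48, SE 0.16, edgeR adjusted p = 0.0256). The call was lost with DESeq2 (adjusted p = 0.136), with a transcript length offset (edgeR adjusted p = 0.0713), with limma on log2(TPM + 1) (adjusted p = 0.0907), and with edgeR without any 1 library other than knockout replicate 2 (adjusted p = 0.0519 to 0.134). The direction was the same in all 14 alternatives, from -0.57 to -0.32. The 121 tested genes within 5 Mb of Cldn3 had a median of -0.07, with 11 called higher and 32 lower; those within 2 Mb had a median of -0.16. A transcript of the opposite strand, Wbscr25, overlaps Cldn3 and had at most 1 count in any library.

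The ratio of Cldn4 to Cldn3 in TPM was 13.97, 11.5 and 13.3 in knockout libraries and 6.46, 5.65 and 5.91 in wild-type libraries. The ratio was thus higher in every knockout library, with means of 12.9 ± 1.28 in the knockout and 6.01 ± 0.417 in wild type (SD, n = 3). In TPM, Cldn4 was higher and Cldn3 lower in every knockout library. The separation of the ratio follows from these values and is no further test.

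Promoter sequences of Cldn4, Cldn3 and Epcam are shown because Cldn4 and Epcam rose together while Cldn3, next to Cldn4, fell. They are the 250 bases before the annotated start from RefSeq on GRCm38.p6, on the strand of the gene; 7 of the 10 genes have an entry, and Cdh1, Esrp1 and Grhl2 do not. Capitals mark the E-box CAGGTG or CACCTG (the same site on opposite strands, bound by Snail and Zeb repressors) and the GC box GGGCGG or CCGCCC (bound by Sp factors). The windows are chr5:134946935-134947184 for Cldn4, chr5:134985964-134986213 for Cldn3 and chr17:87635729-87635978 for Epcam.
Cldn4: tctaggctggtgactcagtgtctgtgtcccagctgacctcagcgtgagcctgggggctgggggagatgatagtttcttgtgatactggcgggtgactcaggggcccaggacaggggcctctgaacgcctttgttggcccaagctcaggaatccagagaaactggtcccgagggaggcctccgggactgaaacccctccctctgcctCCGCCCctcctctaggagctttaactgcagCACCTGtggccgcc
Cldn3: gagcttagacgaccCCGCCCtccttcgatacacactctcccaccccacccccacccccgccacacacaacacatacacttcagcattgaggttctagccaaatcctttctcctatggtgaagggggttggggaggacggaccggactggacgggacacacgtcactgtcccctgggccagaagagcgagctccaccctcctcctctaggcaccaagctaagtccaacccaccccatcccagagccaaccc
Epcam: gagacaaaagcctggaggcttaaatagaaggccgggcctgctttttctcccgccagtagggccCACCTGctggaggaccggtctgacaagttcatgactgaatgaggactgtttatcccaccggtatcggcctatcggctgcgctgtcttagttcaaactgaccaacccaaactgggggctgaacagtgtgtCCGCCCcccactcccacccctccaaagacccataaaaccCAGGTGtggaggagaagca
Cldn4 held 1 E-box and 1 GC box, Cldn3 held 0 and 1, and Epcam held 2 and 1, with no overlap between motifs. Over the windows of the 7 genes, which have 9 annotated starts, 5 genes held an E-box and 7 a GC box; of all 32851 promoter windows of this length, 17.2% held an E-box and 32.7% a GC box. The motif AACCNGTT of Grainyhead-like factors, searched with its reverse complement AACNGGTT, was in 0 of the 7 genes and in 1.79% of all windows. The counts are per gene and the shares per window, so a gene with more than 1 annotated start had more windows in which to match. GC content of the 9 windows ran from 51.2% (a window of Cldn7) to 69.2% (a window of Ocln), beside a median of 52.4% over all windows. A match describes the letters only.

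Cldn7 (ENSMUSG00000018569, chromosome 11, 69964779 to 69967885, plus strand) encodes the claudin that binds Epcam. It had 148, 160 and 184 counts in knockout libraries and 129, 132 and 127 in wild-type libraries, or 23.7, 30.3 and 28.3 CPM in the knockout and 22.5, 21.5 and 21.8 CPM in wild type. The rise was 1.25-fold (log2 fold change 0.32, SE 0.11, edgeR adjusted p = 0.0348). Knockout replicate 1 stood close to the wild-type libraries, and in TPM it fell among them, with 21.0, 32.1 and 30.9 TPM in the knockout and 22.9, 20.9 and 21.96 TPM in wild type. The deposited length of Cldn7 was 1210, 967 and 1039 bases in the knockout and 1008, 1018 and 983 bases in wild type, so the longest estimate belonged to the same library. The call was lost with the transcript length offset (edgeR adjusted p = 0.335), with DESeq2 (adjusted p = 0.170), with limma on log2(TPM + 1) (adjusted p = 0.176) and with edgeR without any 1 library other than knockout replicate 1 (adjusted p = 0.0647 to 0.145). Chromosome 11 was shifted the other way, with a median of -0.12 over its 1049 other tested genes.

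Cldn6 (ENSMUSG00000023906, chromosome 17, 23679249 to 23682446, plus strand), a claudin of early embryonic epithelia, did not pass the test. It had 49.3, 51.2 and 48.5 CPM in knockout libraries and 46.5, 54.6 and 45.9 CPM in wild-type libraries (log2 fold change 0.02, SE 0.08, edgeR adjusted p = 0.901). The wild-type libraries lay on either side of the knockout libraries.

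Summed over 24 annotated claudin genes, claudin transcripts reached 165, 178 and 192 TPM in knockout libraries and 138, 130 and 126 TPM in wild-type libraries. Cldn4 made up 55.2 ± 1.99% of that sum in the knockout and 44.7 ± 1.5% in wild type (SD, n = 3). Cldn6 made up 19.7 ± 1.5% in the knockout and 24.3 ± 2.31% in wild type, and Cldn3 4.29 ± 0.285% in the knockout and 7.45 ± 0.263% in wild type. The sum and each of these shares separated the groups (exact two-sided permutation p = 0.10 for each, the smallest possible), while the share of Cldn7 did not (15.6 ± 2.68% in the knockout and 16.7 ± 0.640% in wild type, exact permutation p = 0.70). A share falls when another claudin rises, so the lower share of Cldn6 is no fall of its level. The lower share of Cldn3 follows from its lower TPM and the higher sum in every knockout library. Cldn4, already called higher, averaged 98.4 and 58.8 TPM in knockout and wild type, beside 178 and 132 TPM for the sum. The higher sum and the higher share of Cldn4 largely follow from this rise and are no further test. The share of all tested genes that separate in TPM is not given. The other 20 claudins together held 5.08 ± 0.219% in the knockout and 6.89 ± 0.805% in wild type.

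**Figure D3:**
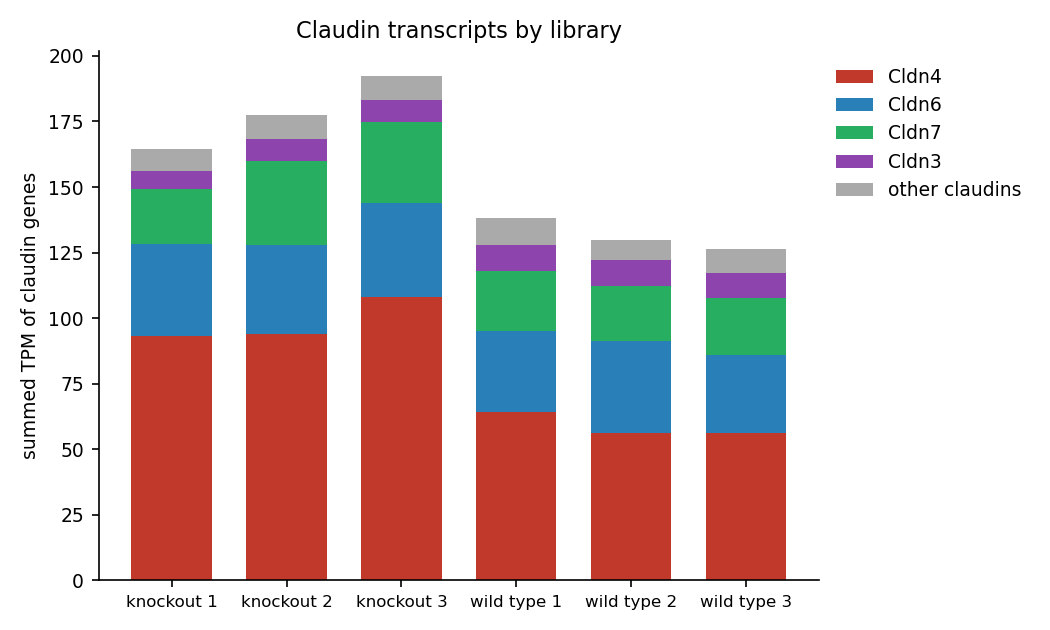
Summed TPM of 24 claudin genes in each library, stacked by gene (knockout replicates left, wild-type replicates right). The Cldn4 segment is taller in the 3 knockout libraries (93.1 to 108 TPM) than in the 3 wild-type libraries (56.2 to 64.0 TPM), and the Cldn3 segment is the smallest named segment in all 6.

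Ocln (ENSMUSG00000021638, chromosome 13, 100496507 to 100552718, minus strand) encodes occludin, a membrane protein of tight junctions. It had 36, 35 and 39 counts in knockout libraries and 20, 28 and 28 in wild-type libraries, or 1.82, 2.16 and 1.88 TPM in the knockout and 1.25, 1.38 and 1.25 TPM in wild type. The groups did not overlap, but at these counts the log2 fold change of 0.51 had an SE of 0.24 and did not pass the test (edgeR adjusted p = 0.123, from 0.0847 to 0.339 over the alternatives). Tjp1 (ENSMUSG00000030516, chromosome 7, 65296165 to 65527781, minus strand) encodes ZO-1, the scaffold that links claudins and occludin to actin. It had 33.1, 30.6 and 25.4 CPM in knockout libraries and 26.2, 28.7 and 29.2 CPM in wild-type libraries, which overlap (log2 fold change 0.08, SE 0.11, edgeR adjusted p = 0.633). On the TPM scale its groups did not overlap, at 4.84, 4.48 and 4.25 TPM in the knockout and 3.88, 4.08 and 3.85 TPM in wild type, and limma on log2(TPM + 1) did not call it (0.16, adjusted p = 0.392). The median of all tested genes was 0.10 on log2(TPM + 1), beside 0.02 on counts. Gm44792, a transcript on the same strand inside Tjp1, had at most 9.02 counts in any library.

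Grhl2 (ENSMUSG00000022286, chromosome 15, 37233036 to 37363569, plus strand) encodes a Grainyhead-like transcription factor that is known to activate epithelial junction genes such as Cdh1 and Cldn4. Its expected counts were 23.0, 8.73 and 20.8 in knockout libraries and 37.1, 36.5 and 27.5 in wild-type libraries, not whole in any of the 6. In CPM these were 3.68, 1.70 and 3.23 in the knockout and 6.46, 5.86 and 4.81 in wild type, without overlap and lowest in knockout replicate 2. The fall was to 0.513 of the wild-type level (log2 fold change -0.96, SE 0.29, edgeR adjusted p = 0.0127). The TPM values overlapped, at 1.09, 0.55 and 1.47 in the knockout and 1.81, 1.57 and 1.22 in wild type. The deposited length was 3340, 2766 and 2297 bases in the knockout and 3301, 3386 and 3432 bases in wild type (exact two-sided permutation p = 0.20). The call was lost without knockout replicate 2 (log2 fold change -0.72, edgeR adjusted p = 0.0663) and without wild-type replicate 1 (-0.87, edgeR adjusted p = 0.0609). It was also lost with DESeq2 (-0.98, adjusted p = 0.0544), with the length offset (-0.66, edgeR adjusted p = 0.174) and with limma on log2(TPM + 1) (-0.33, adjusted p = 0.247). All 33 tested genes within 5 Mb had a higher log2 fold change than Grhl2, with a median of 0.12.

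Esrp1 (ENSMUSG00000040728, chromosome 4, 11331933 to 11386783, minus strand) encodes a splicing factor that produces the epithelial isoforms of its target transcripts. It had 35, 18 and 38 counts in knockout libraries and 22, 30 and 29 in wild-type libraries, which overlap (log2 fold change 0.13, SE 0.26, edgeR adjusted p = 0.765). Among 7 transcripts known to be spliced by Esrp proteins in epithelial cells, 5 were tested. Of these, Arhgef11 rose (0.61, edgeR adjusted p = 0.0394) and Enah fell (-0.23, edgeR adjusted p = 0.000764). Over all tested genes, 12.1% were called higher and 14.4% lower. Arhgef11 lost its call in 11 of 14 alternatives (adjusted p from 0.0125 to 0.208). Deposited lengths overlapped between the groups for all 7. For Enah, an actin regulator gene, the lengths were 4795, 4125 and 4985 bases in the knockout and 4348, 3862 and 3527 bases in wild type (exact two-sided permutation p = 0.20). Gene lengths do not show single exons, so splicing itself was not measured.

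**Figure D4:**
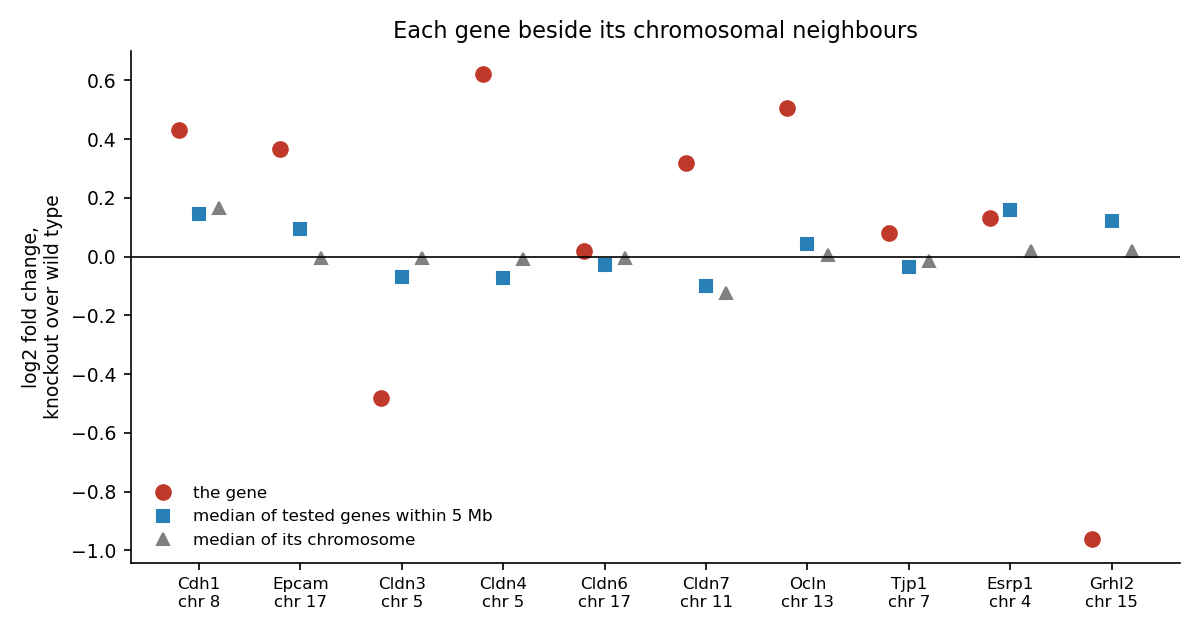
Log2 fold change, knockout over wild type, of each gene (circles), the median of the other tested genes within 5 Mb (squares) and the median of its chromosome (triangles). Cdh1 on chromosome 8 (0.43, beside 0.17 for the chromosome) lies on an upward-shifted chromosome and Cldn7 on chromosome 11 (0.32, beside -0.12) on a downward-shifted chromosome. The medians of the other chromosomes shown lie between -0.01 and 0.02.

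By the root mean square difference of mean-centred log2 CPM over the 6 libraries, the genes most like Cdh1 among 9783 compared were Kntc1 (0.016), Wnk1 (0.022) and Cdo1 (0.025). Kntc1 encodes a mitotic checkpoint protein, Wnk1 a kinase of ion transport and Cdo1 a cysteine dioxygenase. Epcam ranked 132nd, Cdh3 202nd and Cldn4 942nd by this measure. The 6 points share their library scaling, so this is a description of these libraries. The measure favours genes with a change of similar size: the log2 fold changes of Kntc1, Wnk1 and Cdo1 were 0.41, 0.44 and 0.42, beside 0.43 for Cdh1 and 0.62 for Cldn4. Whether such small differences exceed counting error was not tested. Kntc1 had 46.3, 44.2 and 45.6 CPM in the knockout and 34.2, 34.4 and 34.2 CPM in wild type.

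Other genes of the junctions were read from the same fit. The counts per list stand beside 12.1% of all tested genes called higher and 14.4% called lower. Of 15 adherens junction partners of E-cadherin, 13 were tested; 3 rose, 0 fell and 10 did not pass, with a median of 0.15. Nectin2, which encodes an adhesion receptor of the immunoglobulin family, had 69.4, 62.9 and 72.7 TPM in the knockout and 55.1, 49.1 and 50.2 TPM in wild type (log2 fold change 0.33, edgeR adjusted p = 7.28e-06). Afdn, which encodes the nectin-binding scaffold afadin, rose by 0.28 (edgeR adjusted p = 0.00837), and was lost with DESeq2 and without knockout replicate 3 (adjusted p up to 0.0727). Ctnnb1, which encodes beta-catenin, rose by 0.13 (edgeR adjusted p = 0.0389) and was lost in 9 of 14 alternatives (adjusted p from 0.0363 to 0.291). The count of rises in this list was 1 with DESeq2 and without knockout replicate 3.

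Of 22 further tight junction genes, 19 were tested; 6 rose, 0 fell and 13 did not pass, with a median of 0.20. Those with the smallest p were Magi1 (log2 fold change 0.55, edgeR adjusted p = 1.22e-05), Jam2 (0.23, edgeR adjusted p = 0.000436), Ildr1 (0.52, edgeR adjusted p = 0.000559) and Ybx3 (0.20, edgeR adjusted p = 0.000813). Magi1 encodes a scaffold, Jam2 an adhesion molecule, Ildr1 a component of tricellular contacts, and Ybx3 a nucleic acid-binding protein that attaches to ZO-1. Ildr1 had 11.2, 11.2 and 9.81 TPM in the knockout and 6.96, 7.30 and 6.23 TPM in wild type, without overlap. Limma on log2(TPM + 1) called 3 rises in this list and did not call Magi1 (adjusted p up to 0.0763 over the alternatives). Magi1 and Ybx3 lie on chromosome 6, whose median log2 fold change is not given here. Of the 21 other genes named as claudins or claudin domain genes, 4 were tested and 1 rose, Cldnd1 (0.39, edgeR adjusted p = 0.0346), a claudin domain gene whose call was lost in 8 of 14 alternatives (adjusted p from 0.0318 to 0.176); 7 had 0 counts in all libraries.

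Of 21 apicobasal polarity genes, 16 were tested, of which 2 rose, 0 fell and 14 did not pass, with a median of 0.03. The count of rises was near the share of all tested genes called higher, 12.1%. Prkci, which encodes the atypical protein kinase C of the Par complex, had 15.5, 13.8 and 16.5 TPM in the knockout and 11.2, 9.45 and 11.5 TPM in wild type (log2 fold change 0.43, edgeR adjusted p = 1.86e-05). Patj, a scaffold gene of the Crumbs complex, rose by 0.53 (edgeR adjusted p = 0.0184) and was lost in 6 of 14 alternatives (adjusted p from 0.0195 to 0.416). Of 9 desmosome genes, 7 were tested, 2 rose, 0 fell and the median was -0.02. Desmoplakin, Dsp, rose by 0.52 (edgeR adjusted p = 0.00147) and the desmosomal cadherin Dsg2 by 0.48 (edgeR adjusted p = 0.000765). Limma on TPM called neither (adjusted p up to 0.0579 and 0.197 over the alternatives), and the length offset did not call Dsg2.

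Of 17 epithelial surface and keratin genes, 13 were tested, 4 rose, 0 fell and 9 did not pass, with a median of 0.06. Of the 13, 7 had a positive log2 fold change. The keratin genes Krt7, Krt8, Krt18 and Krt19 had negative values (-0.73, -0.20, -0.23 and -0.24). They did not pass the test (edgeR adjusted p = 0.111, 0.146, 0.241 and 0.215). Ap1m2, which encodes an adaptor subunit for basolateral sorting, had 15.4, 11.9 and 13.3 TPM in the knockout and 6.37, 7.22 and 8.27 TPM in wild type (log2 fold change 0.68, edgeR adjusted p = 0.000298). The integrin gene Itga6 rose by 0.35 (edgeR adjusted p = 0.00104), the membrane protease gene St14 by 0.30 (edgeR adjusted p = 0.00125) and the laminin gene Lama5 by 0.21 (edgeR adjusted p = 0.00809), of which Lama5 was lost in 5 of 14 alternatives (adjusted p from 0.00432 to 0.283). Of 13 epithelial regulators other than Esrp1 and Grhl2, 10 were tested, 0 rose and 1 fell, Klf5 (-0.31, edgeR adjusted p = 7.17e-05), a zinc finger factor gene; limma on TPM did not call it (adjusted p up to 0.164). The paralogues Grhl1 (-0.03), Grhl3 (0.15) and Esrp2 (-0.02) did not pass the test (edgeR adjusted p = 0.969, 0.603 and 0.961).

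The opposite side of the transition was read from repressor and mesenchymal genes. Of 13 transcription factors that drive epithelial-to-mesenchymal transition, 7 were tested, 0 rose and 1 fell, Gsc (-1.35, edgeR adjusted p = 0.0234), a homeobox gene with a mean of 1.67 CPM whose call was lost in 6 of 14 alternatives (adjusted p from 0.0204 to 0.104). Levels of these factors differed. Snai1, an E-cadherin repressor gene, had 1.03, 1.68 and 1.74 TPM in the knockout and 1.25, 1.13 and 0.59 TPM in wild type, and Zeb1 had 0.99, 0.71 and 0.91 TPM in the knockout and 1.11, 1.21 and 1.06 TPM in wild type. Zeb1 was lower in every knockout library and did not pass the test (log2 fold change -0.46, edgeR adjusted p = 0.117); Snai1 overlapped between the groups. Tcf3, which encodes E proteins that also repress E-cadherin, had 47.5, 40.2 and 50.4 TPM in the knockout and 45.2, 39.7 and 39.5 TPM in wild type, which overlap.

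Of 20 mesenchymal and fibroblast markers, 7 were tested, 1 rose and 2 fell, with a median of -0.43. Vim, the intermediate filament vimentin, had 45.8, 39.7 and 49.6 TPM in the knockout and 75.7, 69.2 and 76.2 TPM in wild type (log2 fold change -0.86, edgeR adjusted p = 1.99e-13). Fn1, the matrix protein fibronectin, went the other way, with 210, 183 and 225 TPM in the knockout and 141, 123 and 126 TPM in wild type (0.54, edgeR adjusted p = 2.53e-11). Thy1, a surface glycoprotein gene, fell by 0.97 on the log2 scale (edgeR adjusted p = 0.00859), and was lost with limma on TPM and without knockout replicate 1 (adjusted p up to 0.0842). The other 18 markers without Vim and Fn1 summed to 8.68 to 15.0 TPM in knockout libraries and 12.02 to 16.95 TPM in wild-type libraries. Of the defining fibroblast genes, Col3a1, Lum, Dcn, Postn and S100a4 had 0 counts in all 6 libraries, and Col1a1 stood at 0.12 to 0.24 TPM in the knockout and 0.17 to 0.35 TPM in wild type.

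**Figure D5:**
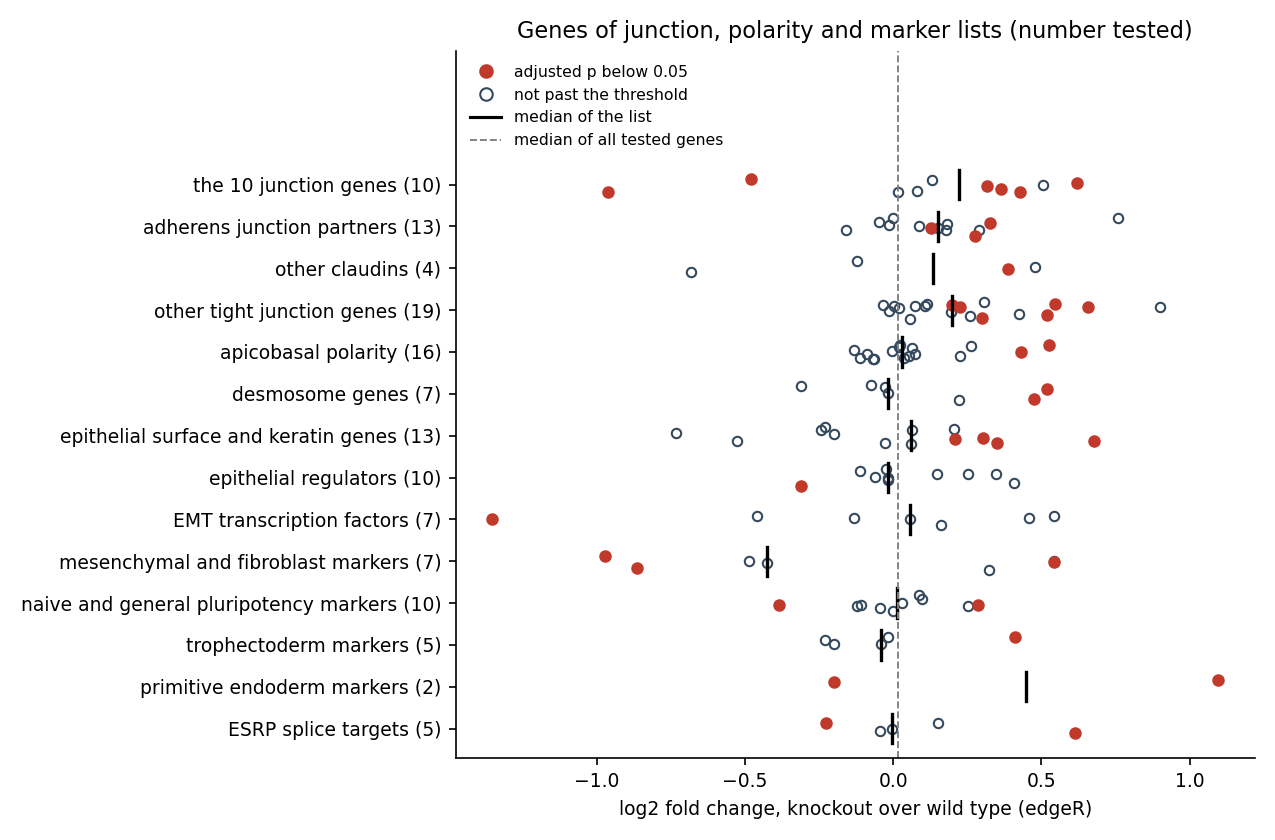
Log2 fold change, knockout over wild type, of every tested gene in each list, with called genes filled, the list median as a black bar and the median of all tested genes (0.02) as a dashed line. Called genes of the adherens, tight junction, polarity, desmosome and epithelial surface lists lie to the right of 0, and those of the 10 junction genes and the mesenchymal list lie on both sides.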

How the data were processed

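Each of the 6 libraries has a gene table. Its expected count column, as deposited, holds estimated reads per gene with no depth scaling. The authors' TPM and FPKM columns, per the file headers, are scaled by transcript length and library. FPKM entered only a check of levels. Lengths are other values, in bases, deposited per gene and library. Bowtie 0.12.2, mm8 and mm10 appear in the submitters' processing notes, with no roles; which quantifier, annotation and strand setting were used is not given in the sources used here. Identifiers matched GENCODE M21 (GRCm38), the source of all coordinates.

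Counts were rounded and fitted in R 4.3.3 with edgeR 4.0.16 (TMM, filterByExpr, robust quasi-likelihood test, genotype as the only term, Benjamini-Hochberg over 12891 genes). CPM uses TMM-scaled library sizes. The steps were run on simulated counts. How well changes as small as those reported here were recovered, and how many false calls arose, is not given. Alternatives were RLE scaling, DESeq2 1.42.0, limma 3.58.1 on TPM with a pseudocount of 1 or 0.1, an offset for effective length, a replicate block, no count filter or one of at least 1 CPM in 3 libraries, and each library left out.

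Members and lists were chosen with earlier results of these data known, so lists are described by counts and medians beside all tested genes. Named list genes were up to 4 called genes per list by smallest p with a mean of at least 1 CPM; likeness to Cdh1 used genes with a mean of at least 5 CPM. Pou5f1, Cdx2, Esrp2, Grhl1, Grhl3, Cdh3, Snai1, Zeb1, Tcf3, Col1a1, the keratin genes and the genes at 0 were named after their values were seen. Library totals of 5412577 to 6280934 put the low-count floor described in the Results at about 0.5 CPM per library. That floor is not the precision of CPM values at higher counts.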

Additional observations from a re-analysis of the deposited data

How the results depend on the processing

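Cdh1, Epcam and Cldn4 kept their rise and their call in all 14 alternatives (log2 fold change 0.41 to 0.55, 0.33 to 0.45 and 0.59 to 0.74). RLE scaling, both other count filters and the replicate block left 6 of the 10 genes called. The number was 3, with 0 lower, with DESeq2, with the transcript length offset and with limma on log2(TPM + 1) and log2(TPM + 0.1), and it ran from 3 to 5, with 3 to 4 higher and 0 to 1 lower, with each library left out; it was 3 without wild-type replicate 1. The cause was not tested, apart from the fewer samples that leaving out a library brings. Over all genes, 3420 calls became 1988 with DESeq2 (701 higher), 1856 on log2(TPM + 1) (749 lower) and 1824 on log2(TPM + 0.1) (738 lower), and 2615 to 3210 with a library left out (1118 to 1423 higher and 1486 to 1787 lower). Called genes over the 13 lists, 30 in the edgeR fit, numbered 19 with DESeq2, 17 and 16 with limma on the TPM scales, and 21 to 35 with a library left out. The median of all genes was 0.10 on log2(TPM + 1) and 0.11 on log2(TPM + 0.1), beside 0.02 on counts.

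Uncalled genes changed sign near 0: Cldn6 to -0.0033, -0.022 and -0.029 without knockout replicate 2, wild-type replicate 1 and wild-type replicate 3 (-0.029 to 0.11 over the libraries left out), Tjp1 to -0.0093 without knockout replicate 1 (-0.0093 to 0.19), and Esrp1 to -0.0027 without knockout replicate 3 (-0.0027 to 0.32). Libraries that share a replicate number showed little shared deviation (correlations of 1.06e-05, 0.0389 and 0.0182 for the pairs). Knockout replicate 1 correlated best with wild-type replicate 3 (0.0400). These values show no clear pairing by number and cannot tell whether libraries of the same number were handled together. The replicate block gave 3353 calls over all genes. FPKM in place of TPM kept 8 of the 10 genes with a higher mean in the knockout, effective length kept 1 gene with separate lengths, and a window of 2 Mb kept the median around Cdh1 at 0.14. Low counts limit Grhl2, Esrp1 and Ocln.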

Other observations

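Markers of the other cell types of the early embryo were read from the same fit, in which 12.1% of all tested genes were called higher and 14.4% lower. Of 9 trophectoderm markers, 5 were tested and 1 rose, Tead4 (log2 fold change 0.41, edgeR adjusted p = 0.0138), a transcription factor gene of the Hippo pathway; the summed level was 59.0 to 65.3 TPM in the knockout and 58.5 to 65.4 TPM in wild type. Cdx2, the defining trophectoderm factor, had 0.29 to 0.39 TPM in the knockout and 0.39 to 0.44 TPM in wild type. Tead4 was lost in 6 of 14 alternatives (adjusted p from 0.0147 to 0.102). Of 8 primitive endoderm markers, 2 were tested; Gata4 rose (1.10, edgeR adjusted p = 0.0247, lost in 7 of 14 alternatives with adjusted p from 0.00706 to 0.277) and Sparc fell (-0.20, edgeR adjusted p = 0.00113, lost with limma on TPM, adjusted p up to 0.459), while Sox7 had 0 counts in all libraries; the summed level was 77.6 to 86.7 TPM in the knockout and 83.5 to 87.5 TPM in wild type. Of 10 pluripotency markers, Zfp42 rose (0.29, edgeR adjusted p = 1.43e-05) and Nanog fell (-0.39, edgeR adjusted p = 0.00167), and Nanog was lost without knockout replicate 2 or 3 and on log2(TPM + 0.1) (adjusted p up to 0.0934). Zfp42 and Sparc lie on the shifted chromosomes 8 and 11, with medians of 0.17 and -0.12. The part of these shifts in their changes was not tested.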
